A study of Mus musculus with 4 samples.

Results

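Transcripts of the Src and Tec family tyrosine kinases were compared between PLZF+ and PLZF- γδ T cells of mouse fat. The 8 genes are the Src family members LCK, FYN, BLK, LYN, FGR and YES1 and the Tec family members TXK and TEC, out of 44808 named genes in the deposited tables. They were chosen by family and with their levels in these same 4 libraries already known. Their differences between the subsets are therefore given as a description, with no test. A gene's level is the sum of all rows that carry its symbol, which joined 2 rows each for BLK and LYN.

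The study took γδ T cells from epididymal fat, by sorting, and the mice were male C57Bl/6 animals aged 16 to 22 weeks. All mice carried a GFP reporter of PLZF, the transcription factor encoded by Zbtb16, and the sort separated PLZF+ from PLZF- cells. The labels list no treatment, and the gates of the sort are not given there. Each subset has 2 libraries, each a pool of 10 mice made into cDNA with SMART-seq2, a full-length method for small cell numbers. The table columns carry the codes A6 and B6 for the PLZF- libraries and A7 and B7 for the PLZF+ libraries, and these codes name the libraries here. Because mice were pooled, every SD and p-value refers to differences among pools, and variation from mouse to mouse was not measured.

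Src family kinases sit on the inner face of the plasma membrane and are the first enzymes to act when an antigen receptor is engaged. LCK and FYN are the forms best known from T cells, where they phosphorylate the tyrosine motifs of the CD3 and ζ chains, while LYN, BLK and FGR are better known from B cells and myeloid cells. Tec family kinases act one step later: they are phosphorylated by Src family kinases and in turn activate phospholipase C-γ. TXK and TEC are both made in T cells.

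The libraries held an estimated 744557 (A6), 981866 (B6), 1837476 (A7) and 2035023 (B7) reads without the ribosomal RNA precursor Rn45s, so 1 read is worth less in the PLZF+ libraries. Rn45s was listed at 0 in B7 and took 26.8% to 33.2% of the other 3 libraries. Zbtb16 stood at 310 and 699 normalized counts in the PLZF- libraries and at 2899 and 2921 in the PLZF+ libraries, in the order of the labels. The summed level of 8 measured γδ T cell markers, Zbtb16 included, was 1528 to 2879 in PLZF- and 14115 to 15265 in PLZF+ libraries, and all 8 rose in PLZF+ cells by the limma test described below. The constant genes of the γδ and αβ receptors were not matched to a row. Of 14 natural killer and innate lymphoid cell markers, 12 were tested and all 12 fell, from a sum of 5034 to 5645 down to 208 to 286 normalized counts. Of 10 dendritic cell markers, all tested, 6 fell, with sums of 987 to 2078 in PLZF- and 83.7 to 203 in PLZF+ libraries. Over all 8930 genes tested, 2.52% rose and 4.73% fell. NCR1, KLRD1, KLRE1, NKG7, PRF1, SIGLECH, ITGAX, FLT3 and CCR9 passed the test's filter on low values only through the PLZF- libraries. The counts of falls are therefore given as a description. The marker sum of macrophages and monocytes was 80.5 to 167 in PLZF- and 0.558 to 24.2 in PLZF+ libraries, and 5 of its 12 measured markers were at 0 in every library. That of mast cells and granulocytes was 224 to 542 in PLZF- and 19.0 to 245 in PLZF+ libraries, with 4 of 9 markers at 0 throughout. B cell, αβ T cell and fat or stromal marker sums ranged from 0 to 162 over the libraries. The αβ T cell sum was 27.0 and 23.2 in PLZF- and 1.24 and 0 in PLZF+ libraries. PECAM1 made up most of the fat or stromal sum, at 99.5 to 160 normalized counts. In these pools of cells, fewer cells of a type and less RNA per cell cannot be told apart.

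**Figure D1:**
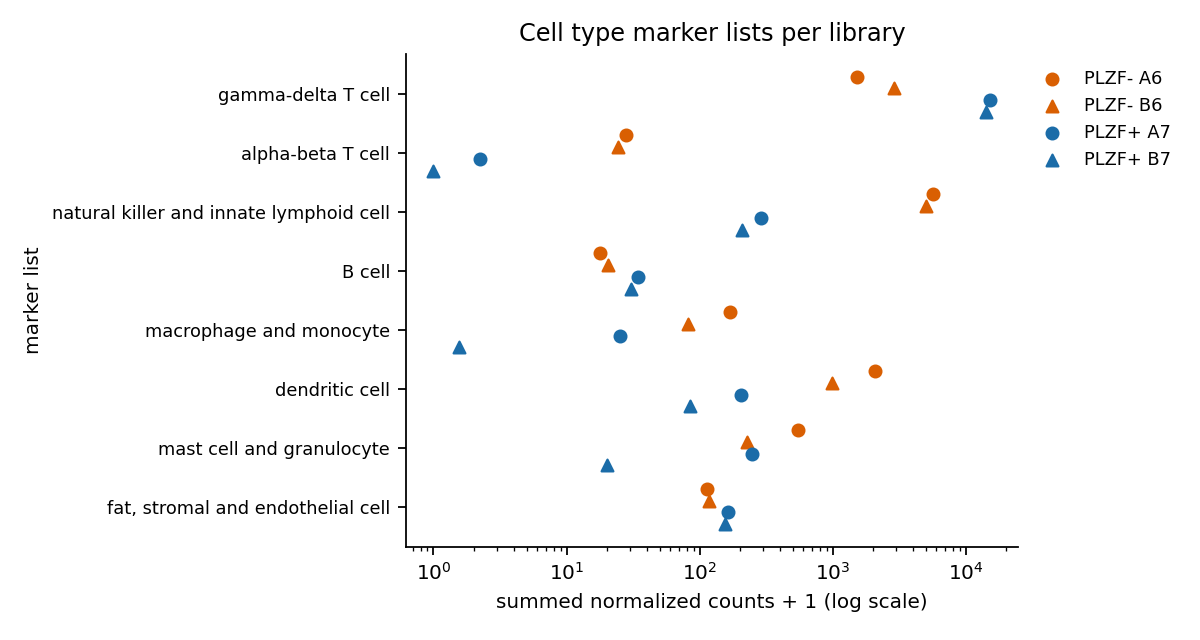
Summed normalized counts (plus 1, log axis) of 8 cell type marker lists, 1 point per library, with PLZF- in orange and PLZF+ in blue. The γδ T cell markers are higher in both PLZF+ libraries, and the natural killer, dendritic and macrophage markers are higher in both PLZF- libraries.

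The 2 subsets held different leading Src family kinases. LCK had the highest level of the 8 kinases in both PLZF- libraries, and BLK had the highest in both PLZF+ libraries. In normalized counts, LCK, LYN, FGR and TXK were lower in both PLZF+ libraries than in either PLZF- library, BLK was higher, and FYN, YES1 and TEC overlapped between the subsets. These are 4 kinases that were lower, 1 that was higher and 3 that overlapped. As background, limma called 2.52% of all 8930 genes tested higher, 4.73% lower and 7.25% in either direction at an adjusted p of 0.05. The test took genes with a mean of at least 10 normalized counts, which 7 of the 8 kinases reached. The shares above count limma calls and not overlap, and the share of all genes without overlap is not given here. With 2 libraries per subset, full separation is a weak criterion. The kinases were selected on this contrast, so nothing is read from their count beside those shares.

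**Figure D2:**
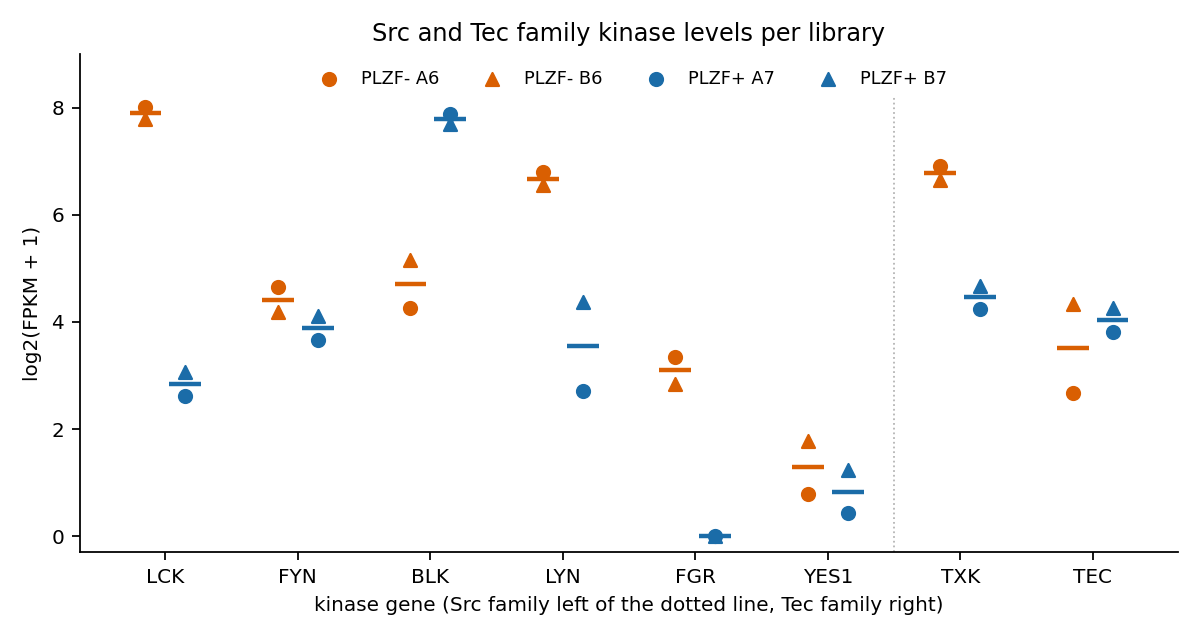
Levels of the 8 kinases as log2(FPKM + 1), 1 point per library and a line at the mean of the 2 libraries of a subset. LCK, LYN, FGR and TXK lie lower in the PLZF+ libraries (blue), BLK lies higher, the points of YES1 and TEC overlap between subsets, and those of FYN lie close together.

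LCK, the kinase that binds the CD4 and CD8 coreceptors and starts signalling at the T cell receptor, is encoded on chromosome 4 (129548344 to 129573641, minus strand, mm10). Its FPKM, a level per length of transcript, was 256 (A6) and 221 (B6) in PLZF- cells and 5.14 (A7) and 7.41 (B7) in PLZF+ cells. Both PLZF+ libraries were far under both PLZF- libraries, although they were the deeper ones: the values rest on 319 and 454 reads in PLZF- and on 20 and 34 reads in PLZF+ cells. The subset means were 239 ± 24.4 and 6.28 ± 1.60 FPKM (SD, n = 2 each), a level 38.0 times higher in PLZF- cells. On the scale of log2(normalized count + 1), which understates changes of low genes, the difference of PLZF+ minus PLZF- was -5.06 ± 0.38 (SE). LCK transcripts were thus low in PLZF+ cells but were read in both libraries. The row also names the microRNA gene Mir8119, which lies in LCK on the same strand (chromosome 4, 129557683 to 129557811) and overlaps its exons, so reads of the 2 genes cannot be told apart.

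LCK is known to be transcribed from a distal and a proximal start, and RefSeq lists 2 starts. The 250 bases before each start are printed because LCK showed the largest fold difference per length among the kinases read in all 4 libraries. Sequences are from RefSeq on GRCm38.p6 (the assembly of mm10), 5′ to 3′ on the minus strand, with matches to the 4 motifs named in the next paragraph in capitals. The upstream start has chr4:129573642-129573891 before it, and the downstream start, inside the gene, has chr4:129558373-129558622.
LCK, upstream start: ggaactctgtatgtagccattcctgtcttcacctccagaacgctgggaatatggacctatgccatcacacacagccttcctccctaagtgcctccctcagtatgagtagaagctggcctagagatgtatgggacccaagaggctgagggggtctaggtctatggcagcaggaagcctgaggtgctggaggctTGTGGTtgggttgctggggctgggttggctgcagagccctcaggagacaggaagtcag
LCK, downstream start: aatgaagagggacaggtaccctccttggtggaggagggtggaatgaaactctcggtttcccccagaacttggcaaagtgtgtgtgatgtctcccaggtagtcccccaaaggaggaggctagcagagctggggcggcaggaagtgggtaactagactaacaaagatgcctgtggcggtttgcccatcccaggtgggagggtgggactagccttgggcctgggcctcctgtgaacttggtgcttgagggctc

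Windows from 250 bases before to 50 bases after a start were searched on both strands for 4 short motifs. These were AGGTGT for T-box factors, CCGGAA for ETS factors, TGTGGT for RUNX factors and AGGTCA for ROR factors, and matches of different motifs may share bases at their ends. RefSeq windows were found for 6 of the 8 kinases, 8 windows in all. The RUNX motif occurred in 3 of the 8 windows, those of the upstream LCK start, an internal TXK start and YES1, and in 16.8% of all 32851 mouse promoter windows. The ETS motif occurred in 2 of the 8, those of FGR and YES1, against 14.9% of all windows. The T-box and ROR motifs, found in 13.7% and 16.3% of all windows, occurred in none of the 8. A match describes letters only and was not tied to binding of a factor in these cells.

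FYN, the second Src family kinase of T cells, is encoded on chromosome 10 (39368855 to 39565381, plus strand). It stood at 24.1 (A6) and 17.1 (B6) FPKM in PLZF- cells and at 11.6 (A7) and 16.3 (B7) FPKM in PLZF+ cells. The lowest PLZF- and the highest PLZF+ value were close in FPKM, and in normalized counts the subsets overlapped, with 155 and 90.2 counts in PLZF- and 60.1 and 96.0 in PLZF+ cells. The log2 difference was -0.63 ± 0.41 (SE), and it ranged from -1.02 without B6 to -0.25 without A6. The FYN levels of the 4 libraries thus stayed within a narrow range beside those of LCK. Per length, LCK was 10.6 and 12.9 times FYN in the PLZF- libraries and 0.442 and 0.456 times FYN in the PLZF+ libraries, so the order of the 2 kinases was opposite between the subsets. Overlapping antisense rows at FYN held at most 6.10 normalized counts.

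BLK, first described as a kinase of B lymphoid cells, is encoded on chromosome 14 (63372836 to 63417037, minus strand). Its FPKM was 18.2 (A6) and 34.7 (B6) in PLZF- cells and 234 (A7) and 205 (B7) in PLZF+ cells. Both PLZF+ libraries were above both PLZF- libraries, with 1442 and 1385 reads behind the PLZF+ values and 41 and 107 behind the PLZF- values. The means were 26.5 ± 11.6 and 219.9 ± 20.5 FPKM (SD, n = 2 each), 8.31 times higher in PLZF+ cells. The log2 difference was 3.11 ± 0.30 (SE) and ranged from 2.66 to 3.57 over the alternatives tried. It was the only one of the 8 kinases whose PLZF+ libraries both exceeded the PLZF- libraries.

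BLK was read in libraries where 7 of 10 measured B cell markers were at 0 throughout, among them MS4A1, CD79A, PAX5, EBF1, CD22 and BANK1. BLNK had 10.1 and 8.54 normalized counts and FCRLA 5.06 and 3.66 in the PLZF- libraries (A6 and B6). Both were at 0 in both PLZF+ libraries. The only one of the 10 read in the PLZF+ libraries was CD79B, which encodes a chain of the B cell receptor complex. CD79B had 1.69 and 7.32 normalized counts in the PLZF- pools and 33.4 and 29.6 in PLZF+ libraries, and it did not pass the limma test. Within PLZF- cells, BLK was 4.35% (A6) and 9.16% (B6) of the Src family total, the widest relative gap between PLZF- pools among BLK, LCK and LYN. Zbtb16 was also higher in B6 than in A6. The part of PLZF+ cells in the PLZF- gate in the BLK reads of these libraries was not tested.

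LYN, which in B cells and myeloid cells phosphorylates both activating and inhibitory receptors, is encoded on chromosome 4 (3678115 to 3813122, plus strand). Its FPKM was 111 (A6) and 92.8 (B6) in PLZF- cells and 5.57 (A7) and 19.7 (B7) in PLZF+ cells. Both PLZF+ values were lower, but they lay further apart than those of LCK, so the PLZF+ mean carries a wide error: 12.6 ± 10.0 against 102 ± 12.5 FPKM in PLZF- cells (SD, n = 2 each). The ratio of the means was 8.04. The log2 difference was -3.40 ± 0.39 (SE), -3.94 without B7 and -2.86 without A7. The long noncoding RNA gene Gm26857 overlaps LYN exons on the opposite strand (chromosome 4, 3678117 to 3689548). Its own row had 90.9 and 27.8 normalized counts in the PLZF- pools and 1.36 and 5.14 in PLZF+ libraries. Whether the counting used strand is not given in the sources used here. Reads from the overlap cannot be told apart.

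FGR, a Src family kinase best known from neutrophils, monocytes and natural killer cells, is encoded on chromosome 4 (132974095 to 133001910, plus strand). It had 9.18 (A6) and 6.21 (B6) FPKM in PLZF- cells, from 30 and 28 reads, and was at 0 in both PLZF+ libraries. Against a floor of 3 reads per library, averaged over the 2 libraries, its normalized count was at least 24.0-fold lower in PLZF+ cells. It passed the filter on low values only through the PLZF- libraries, and its fitted log2 difference depends on the pseudocount and is no bound. This floor covers counting error only, since PCR copies are not independent molecules. The 250 bases before its start (chr4:132973845-132974094, plus strand) are shown for the ETS match in capitals.
FGR: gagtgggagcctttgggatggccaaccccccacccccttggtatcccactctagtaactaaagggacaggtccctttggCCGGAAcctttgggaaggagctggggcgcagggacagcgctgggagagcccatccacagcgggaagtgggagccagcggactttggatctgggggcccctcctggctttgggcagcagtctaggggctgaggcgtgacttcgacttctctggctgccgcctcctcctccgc

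The natural killer, dendritic and macrophage marker sums were higher in both PLZF- libraries, as LCK, LYN and FGR were. The mast cell and granulocyte sum overlapped between the subsets, with 224 in B6 and 245 in A7. Natural killer and innate lymphoid transcripts were lower in PLZF+ cells, among them NCR1, which encodes the receptor NKp46, with 693 and 694 normalized counts in the PLZF- pools and 3.72 and 3.91 in PLZF+ libraries. SIGLECH, a marker of plasmacytoid dendritic cells, had 145 and 90.2 in PLZF- and 0 in both PLZF+ libraries. The macrophage genes CD163, MRC1, FCGR1, C1QA and C1QB and the granulocyte genes S100A8, S100A9, CSF3R and MPO were at 0 in all 4 libraries. Other members of these lists were read. MPEG1, of the macrophage and monocyte list, stood at 132 (A6), 34.1 (B6), 16.7 (A7) and 0 (B7). From the mast cell and granulocyte list, CPA3 stood at 294, 65.9, 73.7 and 17.9, in the same order of libraries. MCPT4 stood at 164, 82.9, 83.0 and 0, and TPSB2 at 82.7, 45.1, 83.0 and 1.12. LYZ2, an abundant transcript of myeloid cells, had 20.2 and 6.10 in PLZF- and 1.24 and 0 in PLZF+ libraries. All of LYN, FGR and these myeloid and dendritic marker sums were higher in A6 than in B6. LCK was higher in A6 per length (256 and 221 FPKM) and lower in A6 in normalized counts (538 and 554). Of the PLZF+ libraries, LYN was lower in A7 than in B7 (29.0 and 62.4 normalized counts), while the myeloid and dendritic sums were higher in A7. The part of these other transcripts in the LCK, LYN and FGR differences was not tested.

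YES1, a broadly expressed Src family kinase, is encoded on chromosome 5 (32611171 to 32687057, plus strand) and was close to the limit of reading. It had 3 (A6), 14 (B6), 4 (A7) and 19 (B7) reads, or 0.725, 2.45, 0.353 and 1.35 FPKM. Its mean was under the filter of 10 normalized counts, so it was not fitted. The libraries of the 2 subsets overlapped, and no difference was detectable at this depth. The antisense gene Gm15614 overlaps it and had 0, 0, 10.5 and 6.70 normalized counts, in the same order of libraries.

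As shares of the summed FPKM of the 8 Src family genes, LCK made up most of the PLZF- totals and BLK most of the PLZF+ totals. LCK made up 61.1% (A6) and 58.5% (B6) of the total in PLZF- cells and 1.998% (A7) and 2.96% (B7) in PLZF+ cells. BLK made up 4.35% and 9.16% in PLZF- and 91.1% and 82.1% in PLZF+ cells. LYN held the second place in PLZF- cells with 26.4% and 24.5%, and 2.17% and 7.88% in PLZF+ cells. FYN kept a small share in every library, between 4.52% and 6.50% per length. On normalized counts its mean share was 9.32% in PLZF- and 8.002% in PLZF+ cells. The total itself was lower in PLZF+ cells, at 257 and 250.2 FPKM against 419 and 378 FPKM in PLZF- cells. Per length, LCK was 14.0 and 6.39 times BLK in the PLZF- libraries, and BLK was 45.6 and 27.7 times LCK in the PLZF+ libraries.

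**Figure D3:**
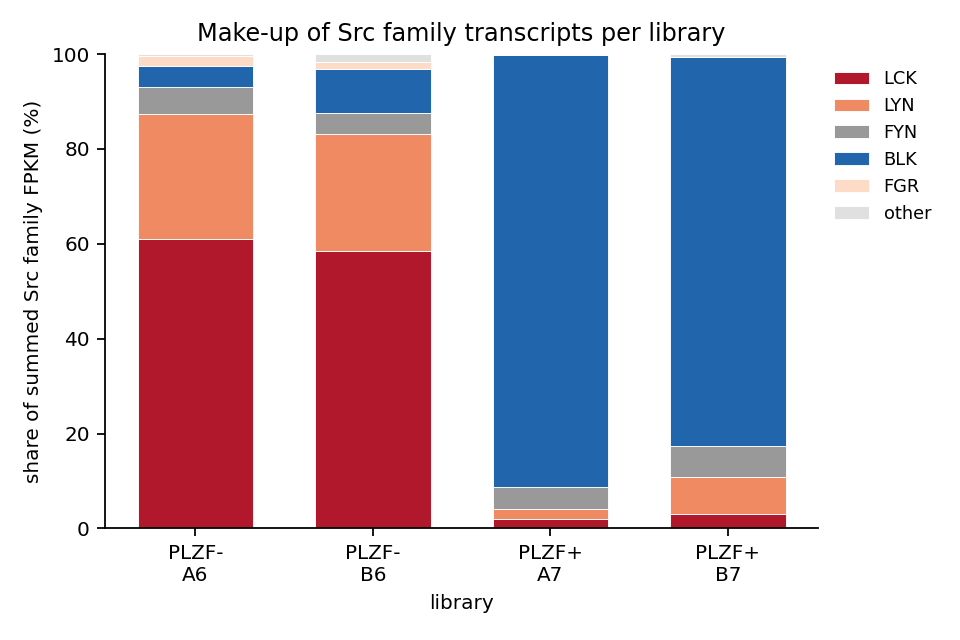
Share of each gene in the summed FPKM of 8 Src family genes (percent), 1 bar per library. LCK (dark red) makes up 58.5% to 61.1% of the PLZF- bars and BLK (blue) 82.1% to 91.1% of the PLZF+ bars.

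TXK, also called RLK, is a Tec family kinase that is anchored by palmitoylation in place of the lipid-binding PH domain of its relatives. It is encoded on chromosome 5 (72695978 to 72752777, minus strand). Its FPKM was 119 (A6) and 99.98 (B6) in PLZF- cells and 18.0 (A7) and 24.4 (B7) in PLZF+ cells, from 288, 346, 156 and 163 reads. The PLZF+ libraries were both lower, and the pools of a subset were close to each other. The means were 109.6 ± 13.7 and 21.2 ± 4.51 FPKM (SD, n = 2 each), 5.17 times higher in PLZF- cells. The log2 difference of -2.26 ± 0.27 (SE) moved little over the alternatives, from -2.36 to -2.15. TXK stayed the second highest of the 8 kinases in every library.

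TEC, the founding member of its family, is the neighbour of TXK on the same strand of chromosome 5 (72755716 to 72868483), with 2938 bases between the annotated genes. Its FPKM was 5.38 (A6) and 19.3 (B6) in PLZF- cells and 13.0 (A7) and 18.1 (B7) in PLZF+ cells. The subsets overlapped, because A6 was the lowest library and B6 the highest, and the A6 value rests on 13 reads. The log2 difference was 0.62 ± 0.57 (SE), 1.43 without B6 and -0.19 without A6, so its direction turned on the A6 library. Per length, TXK was 22.2 and 5.18 times TEC in PLZF- cells and 1.38 and 1.35 times TEC in PLZF+ cells. The 250 bases before the outer starts of these neighbouring genes are shown because the genes lie side by side while their levels between subsets differed. None of the 4 motifs occurred in either window (TXK chr5:72752778-72753027, TEC chr5:72868449-72868698, both minus strand, GRCm38.p6).
TXK: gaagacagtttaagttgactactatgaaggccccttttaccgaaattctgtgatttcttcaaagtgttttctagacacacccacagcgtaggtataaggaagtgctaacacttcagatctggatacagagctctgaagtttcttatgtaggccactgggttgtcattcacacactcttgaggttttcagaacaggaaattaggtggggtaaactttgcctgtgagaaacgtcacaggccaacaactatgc
TEC: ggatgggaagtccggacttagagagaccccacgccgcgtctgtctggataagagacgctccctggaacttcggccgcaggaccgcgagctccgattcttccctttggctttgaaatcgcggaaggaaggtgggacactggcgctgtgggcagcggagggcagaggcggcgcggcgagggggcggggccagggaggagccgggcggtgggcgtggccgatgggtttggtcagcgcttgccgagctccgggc

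The other genes of both families described here were at the limit of reading. BTK, the Tec family kinase of B cells and myeloid cells, had 6.75 normalized counts in A6 and 0 in the other libraries, and BMX was at 0 in all 4. Among the Src family and its relatives, SRC itself had 3.37, 20.7, 1.86 and 0 normalized counts (A6, B6, A7 and B7). SRMS had 6.81 and 1.67 normalized counts in the PLZF+ libraries and 0 in both PLZF- libraries, and FRK and PTK6 were at 0 in every library.

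Of 80 further genes that act with these kinases, 65 passed the filter, 8 rose and 14 fell in PLZF+ cells, and 43 did not pass the test. Over all 8930 genes tested, 2.52% rose and 4.73% fell. The median log2 difference of the 65 was -0.45, and that of all 8930 tested genes was -0.02. The lists were chosen with earlier results of these data known. Nothing is therefore read from their counts or median beside those of all genes. The 80 include the other family kinases, and the tested genes at 0 in both PLZF+ libraries, SYK and CD6, lie below the median at their fitted values and at their bounds alike. Without A7 or without B7, fewer of them passed the test, and fewer of all genes did. The log2 differences of the rises moved little when A7 or B7 was left out. That of CD247 was 1.61 without A7 and 1.40 without B7, against 1.50 with all libraries. For CD3G these were 1.55, 1.54 and 1.55, and for LAT 1.65, 1.78 and 1.72.

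Among 12 receptors and coreceptors that bind Src family kinases, 9 were tested, 4 rose and 3 fell, with a median log2 difference of 0.57. All 4 signalling chains of the T cell receptor complex rose. CD247, the ζ chain whose tyrosine motifs LCK and FYN phosphorylate, went from 210 and 220.2 normalized counts in PLZF- to 569 and 656 in PLZF+ cells (log2 difference 1.50 ± 0.22, SE, limma adjusted p = 0.0011). CD3G rose by 1.55 ± 0.27 (adjusted p = 0.0032), CD3E by 1.22 ± 0.30 (0.025, but 0.082 on the FPKM table) and CD3D by 1.08 ± 0.27 (0.027) on the same scale. Without B7 the adjusted p of CD247, CD3G, CD3E and CD3D was 0.071, 0.098, 0.35 and 0.31. Without A7 it was 0.055 for CD3G, 0.15 for CD3E and 0.23 for CD3D, and without A6 it was 0.086 for CD3E and 0.073 for CD3D. The row of CD247 also names Gm16565.

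The receptor genes that fell were FCER1G, CD28 and CD2. FCER1G, a signalling chain that can take the place of the ζ chain and is used by Fc receptors, had 170 and 150.0 normalized counts in the PLZF- pools and 9.29 and 0 in PLZF+ cells (log2 difference -5.65 ± 0.93, SE, limma adjusted p = 0.0022). FCER1G passed the filter through the PLZF- libraries alone. Its fitted difference depends on the pseudocount, at -6.70 with 0.25 and -4.49 with 4. CD28, the costimulatory receptor, had 251 and 355 in PLZF- and 38.4 and 6.14 in PLZF+ cells (-4.16 ± 0.66, adjusted p = 0.0023). CD2, an adhesion receptor, fell by 2.42 ± 0.41 (adjusted p = 0.0026). The coreceptor genes that carry LCK were scarcely read in either subset: CD4, CD8A and CD8B1 had at most 14.6 normalized counts in PLZF- libraries and were at 0 in both PLZF+ libraries.

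Among 22 inhibitors of Src family kinases or of receptor signalling, 21 were tested, 1 rose and 4 fell, with a median of -0.47. CSK, the kinase that phosphorylates the inhibitory tail of every Src family kinase, had 209 and 168 normalized counts in the PLZF- pools and 241 and 232 in PLZF+ cells and did not pass the test (0.33 ± 0.27, SE, limma adjusted p = 0.54). PAG1, the membrane adaptor that recruits CSK, had a log2 difference of -1.04 and an adjusted p of 0.051. PTPN22, a phosphatase that works with CSK on LCK, fell by 1.57 ± 0.22 (adjusted p = 0.00057). DGKA, which removes diacylglycerol, fell by 2.62 ± 0.33 (0.00028), and the ubiquitin ligase gene CBLB fell by 1.30 ± 0.21 (0.0019, and 0.081 without B7). UBASH3A, a suppressor of T cell receptor signalling, had 101 and 76.8 normalized counts in the PLZF- pools and 0 and 6.14 in PLZF+ cells (-5.06 ± 0.98, adjusted p = 0.0068). Without trend and robust moderation its adjusted p was 0.11. UBASH3A passed the filter through the PLZF- libraries alone. Its fitted difference depends on the pseudocount, at -6.13 with 0.25 and -3.86 with 4, and it was -4.86 without A6 and -5.26 without B6. PTPN6, the phosphatase SHP-1, was the inhibitor that rose, from 157 and 111 to 354 and 396 (1.50 ± 0.28, 0.0048, but 0.062 without A7 and 0.14 without B7).

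Of 8 phosphatases and lipid-anchoring genes that act on the kinases' tail or membrane attachment, 7 were tested, 0 rose and 1 fell by limma, and the median was -0.47. At an unadjusted p under 0.05, 0 rose and 2 fell. PTPRC, the phosphatase CD45 that opens LCK by removing its inhibitory phosphate, had 4211 and 3583 normalized counts in the PLZF- pools and 1233 and 1344 in PLZF+ cells. Its log2 difference was -1.59 ± 0.16 (SE, limma adjusted p = 5.3e-05, but 0.13 without trend and robust moderation). The myristoyltransferase genes NMT1 and NMT2, which attach the lipid of Src family kinases, had log2 differences of 0.37 and -0.47 and did not pass the test.

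Among 30 substrates and adaptors downstream, 27 were tested, 3 rose and 5 fell, with a median of -0.42. ZAP70, the kinase that docks on the phosphorylated ζ chain, rose from 221 and 213 to 561 and 517 normalized counts (log2 difference 1.31 ± 0.22, SE, limma adjusted p = 0.0031). Its relative SYK had 67.5 and 65.9 in PLZF- cells and no read in PLZF+ cells. Against the floor of 3 reads per library, SYK was at least 37.7-fold lower (adjusted p = 0.0088). Like FGR, SYK passed the filter through the PLZF- libraries alone, and its fitted difference and p depend on the pseudocount. The ZAP70 call was lost without A7 (0.088) or B7 (0.077), and the SYK call without A6 (0.28) or B6 (0.098) or with a pseudocount of 0.25 (0.078). LAT, the membrane adaptor that ZAP70 phosphorylates, rose by 1.72 ± 0.28 (adjusted p = 0.0022, and 0.062 without A7 or without B7). RASGRP1, the Ras activator downstream of phospholipase C-γ, rose by 1.25 ± 0.26 (0.011, but 0.15 without A7, 0.18 without B7 and 0.080 on the FPKM table).

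The adaptor NCK2, which links receptors to the actin skeleton, had 459 and 311 normalized counts in the PLZF- pools and 12.4 and 22.9 in PLZF+ cells. Its log2 difference was -4.40 ± 0.43 (SE, limma adjusted p = 4.2e-05), the largest fall of the 4 adaptors and kinases that fell and were read in every library. FYB, an adaptor that FYN phosphorylates, fell by 3.29 ± 0.42 (adjusted p = 0.00031), in a row that also names Gm7666. PRKCQ, the protein kinase C-θ of T cells, fell by 1.68 ± 0.28 (adjusted p = 0.0026). VAV3, a guanine nucleotide exchange factor chosen after its values were seen, fell by 2.29 ± 0.57 (adjusted p = 0.027). Its call was lost without A6 (0.11), A7 (0.21) or B7 (0.11) and on the FPKM table (0.098). LCP2 (SLP-76), a scaffold that ZAP70 phosphorylates, had a log2 difference of -0.61 and did not pass the test (adjusted p = 0.18).

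**Figure D4:**
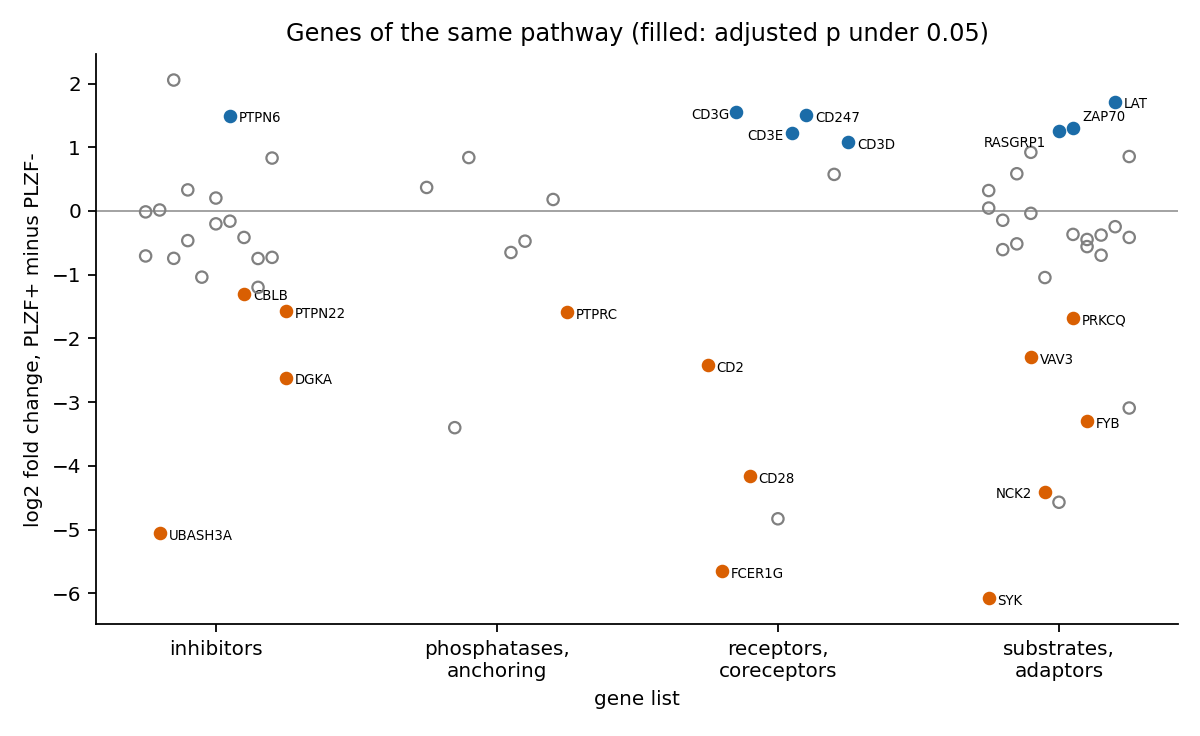
Log2 difference of PLZF+ minus PLZF- (normalized counts plus 1) for the tested genes of 4 pathway lists (inhibitors, phosphatases and anchoring, receptors, substrates), 1 point per gene, filled where the limma adjusted p was under 0.05. The CD3 chains, CD247, ZAP70, LAT, RASGRP1 and PTPN6 lie above 0, and SYK, FCER1G, UBASH3A, NCK2 and CD28 lie lowest of the filled points.

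Profiles over the 4 libraries most like those of LCK and BLK were found as the smallest root-mean-square difference of mean-centred log2(normalized count + 1), which describes 4 libraries of 2 subsets and no shared control. Nearest to LCK were RECK, at a difference of 0.193, NOD1, at 0.198, and the transcript AK041614, at 0.219. RECK, a membrane-anchored protease inhibitor, had 48.9 and 54.9 normalized counts in the PLZF- pools and 0 and 1.12 in PLZF+ libraries. NOD1, an intracellular sensor of bacterial peptidoglycan, had 94.5 and 81.7 in PLZF- and 1.24 and 3.35 in PLZF+ libraries. Nearest to BLK were HAUS1 at 0.193, CASS4 at 0.204 and CAPG at 0.216. CAPG, an actin-capping protein, had 54.0 and 152 in PLZF- and 863 and 833 in PLZF+ libraries, and CASS4, a scaffold of the Cas family, had 16.9 and 29.3 against 156 and 152.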

How the data were processed

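Per the submitters' processing notes, the build was mm10 and the tools were HISAT (0.1.6), SAMtools (1.2), Cufflinks (1.2) and also Cuffdiff. Which annotation and strand setting were used is not given in the sources used here. As named by the authors, the deposited tables hold Cuffnorm normalized counts, a library-scaled signal and not raw counts, and FPKM. Their Cuffdiff table was not used. Values below 0.001 were set to 0. Rows without a name (1.82% to 3.22% of totals) and Rn45s were left out. The value of 1 read was taken from the smallest step of each library, and the share of low values within 0.05 of whole reads was 94.5% to 95.6%.

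Genes with a mean of at least 10 normalized counts were tested over all 4 libraries with limma 3.58.1 in R 4.3.3 (two-sided, with trend and robust moderation), on log2(normalized count + 1). Benjamini-Hochberg adjustment ran over 8930 genes. The script was tested on simulated data. Positions are from GENCODE M21. Other steps used numpy 2.4.6, pandas 2.3.3 and matplotlib 3.10.9 in Python 3.11.15. The kinases and the lists were chosen with earlier results of these data known. Named were all 8 kinases, their measured relatives (some genes are not reported here), up to 4 called genes per list and direction by smallest adjusted p, and the 3 nearest profiles of LCK and of BLK. Alternatives were pseudocounts of 0.25 and 4, a mean of at least 50 or no filter, scaling to equal totals or by median ratio, FPKM values, limma without trend and robust moderation, the letter of the column code as a term, each library left out, and other ways of summing rows and shares.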

Additional observations from a re-analysis of the deposited data

How the results depend on the processing

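No called difference changed sign under the alternatives. The TEC difference, which overlapped between subsets, turned from 0.62 to -0.19 without A6. Over all genes, 225 were higher and 422 lower. Without trend and robust moderation these became 24 and 146, and with the letter of the column code as a term 401 and 629. Leaving out 1 library gave 38 (without B7) to 441 (without B6) higher and 219 (without B7) to 414 (without B6) lower, and without A7 they were 48 and 274. Of the 80 pathway genes, 8 rose and 14 fell. Without trend and robust moderation 0 rose by limma (8 at an unadjusted p under 0.05) and 3 fell, among them SYK and NCK2. The limma calls lost there include PTPRC (adjusted p = 0.13), PTPN22 (0.16), DGKA (0.067) and CD28 (0.13). CD2 (0.089), FCER1G (0.12), FYB (0.062) and PRKCQ (0.13) were lost there too. With the letter as a term 10 rose and 18 fell. Leaving out 1 library gave 0 (without B7) to 9 (without B6) rises and 11 to 13 falls. The cause was not tested.

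The LCK share of Src family FPKM was 59.8% in PLZF- and 2.48% in PLZF+ cells. It became 42.1% and 1.61% on normalized counts, which are not per length and moved the LYN share in PLZF- cells from 25.4% to 35.7%, and 61.8% in PLZF- cells with the highest row of each symbol alone. The fitted log2 difference of FGR, which was -5.41, became -7.39 and -3.51 with pseudocounts of 0.25 and 4, -3.10 on FPKM and -5.69 without B6. No paired analysis was possible because the columns of both tables carry no replicate number, and no label says that their letters pair the libraries. With 2 pools per subset, depth limits YES1, TEC in A6 and the genes at 0.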
